A study of Mus musculus with 14 samples.

Results

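The genes of fatty acid oxidation and ketone body metabolism were followed through 14 liver RNA-seq libraries of male C57BL6/J mice. A list of 35 genes was used, and every row of the count table whose symbol was on the list was taken: 35 of 45706 genes, all of which also passed the filter on low counts that left 15674 genes for testing. The list covers 6 genes of the carnitine shuttle, 2 of fatty acid activation, 4 mitochondrial acyl-CoA dehydrogenases, 4 of the later steps of the mitochondrial spiral, 5 auxiliary enzymes for unsaturated fatty acids, 3 of electron transfer, 4 of peroxisomes, 1 of ketone bodies, and 6 further targets or regulators of the nuclear receptor PPARα. Ketogenesis is thus represented by a single enzyme, Bdh1, and the list is mainly one of oxidation.

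The mice were 8 weeks old when they were put on a standard chow or on a MASH diet, a diet used to model metabolic dysfunction-associated steatohepatitis, and this lasted 16 weeks. Treatment then went on for 6 weeks, still on the MASH diet. The C18:1-leucine group (3 libraries, replicates 1, 2 and 4) received C18:1-leucine, a lipidated amino acid made of that fatty acid and leucine. The C18:1 group (4 libraries, replicates 1 to 4) received the monounsaturated fatty acid alone. The MASH group (3 libraries, replicates 2, 3 and 4) had the diet, and its titles do not say whether vehicle was given. The chow group (4 libraries, replicates 1 to 4) shares sex and strain with the others but not the diet, and no treatment is stated for it. No dose is stated for either compound, so the comparison of the compounds is matched in time but not known to be matched in dose. The labels do not tie each library to its own mouse, so p-values measure the spread between libraries, which may be partly technical.

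Fatty acids enter mitochondria as carnitine esters and are shortened there by repeated rounds of dehydrogenation, hydration, a second oxidation and thiolysis. Very long chains are first shortened in peroxisomes. Electrons from the first dehydrogenation pass through electron transfer flavoprotein to the respiratory chain, and in the fasting liver much of the acetyl-CoA is turned into ketone bodies. PPARα, a receptor that binds fatty acids and heterodimerises with RXR, drives transcription of many of these genes in hepatocytes, and the title of the series names this receptor.

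Total counts ran from 33821874 to 51107248 per library. The treatment tags of C18:1 replicate 1 (diet only) and C18:1-leucine replicate 1 (C18:1) differ from their titles, which were used for grouping, and results that rest on these libraries are given with and without them. The liver label was checked with 9 hepatocyte genes, all detected, whose summed level was 70569 to 95363 CPM (a gene's counts divided by the TMM-scaled depth of the library) in the C18:1-leucine group, 48963 to 61585 CPM in the C18:1 group, 61241 to 70675 CPM in the MASH group and 95139 to 116894 CPM in the chow group. Skeletal muscle genes summed to at most 0.834 CPM in any library. Summed bile duct genes stood at 429 CPM in C18:1 replicate 1, 391 CPM in C18:1 replicate 3, 368 CPM in MASH replicate 4 and 208 CPM in C18:1-leucine replicate 4, against at most 138 CPM in the other treated or MASH libraries and at most 48.2 CPM in chow libraries. Most of these sums was a single gene, Spp1, at 392, 348, 336 and 184 CPM in the same libraries, so they largely follow that gene. Pancreatic genes reached 458 CPM in C18:1-leucine replicate 2. A smaller pancreatic sum, 119 CPM, was found in a chow library (replicate 2), and every remaining library held at most 1.58 CPM. In bulk tissue, fewer cells of a type and less RNA per cell cannot be told apart.

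Set per kilobase of exon, the most abundant of the 35 genes in MASH livers were Acaa1b, a peroxisomal thiolase, at 1379 CPM per kb, Acaa2, the mitochondrial thiolase, at 557 CPM per kb, and Ehhadh, the peroxisomal bifunctional enzyme, at 457 CPM per kb. In chow livers Acaa1b (834 CPM per kb) and Acaa2 (666 CPM per kb) also led, followed by Etfb (348 CPM per kb). Pdk4 was the least abundant in both groups, at 18.03 CPM per kb in MASH livers and 4.03 CPM per kb in chow livers.

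The comparison of MASH with chow livers asks how the oxidation genes differ on the disease-inducing diet. Here 5 of the 35 genes rose and 5 fell at an adjusted p under 0.05 (edgeR quasi-likelihood F test, Benjamini-Hochberg over 15674 genes), and 25 did not pass. Over all genes tested, 20.4% were higher and 15.1% lower, so both counts are at or below the background. By the sign of the estimate alone, 14 genes were higher and 21 lower, where all genes gave 50.6% and 49.4%. The median log2 fold change was −0.06 for the 35 genes and 0.01 for all genes. The genes that fell were Acadvl, Acaa2, Eci2, Etfa and Etfb, and those that rose were Acaa1b, Bdh1, Aldh3a2, Pdk4 and Vnn1. The sign split rested on single libraries, at 10 above and 25 below 0 (median −0.20) without MASH replicate 2, and 18 above and 17 below without MASH replicate 4 (median 0.04) or chow replicate 3 (median 0.012). With libraries scaled to the 9 hepatocyte genes, 7 of which fell in MASH livers (4 without MASH replicate 4), the median of all genes moved to 0.68. Of the 35 genes 32 were then called higher and 0 lower, beside 11837 higher and 167 lower of all 15674 genes.

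**Figure D1:**
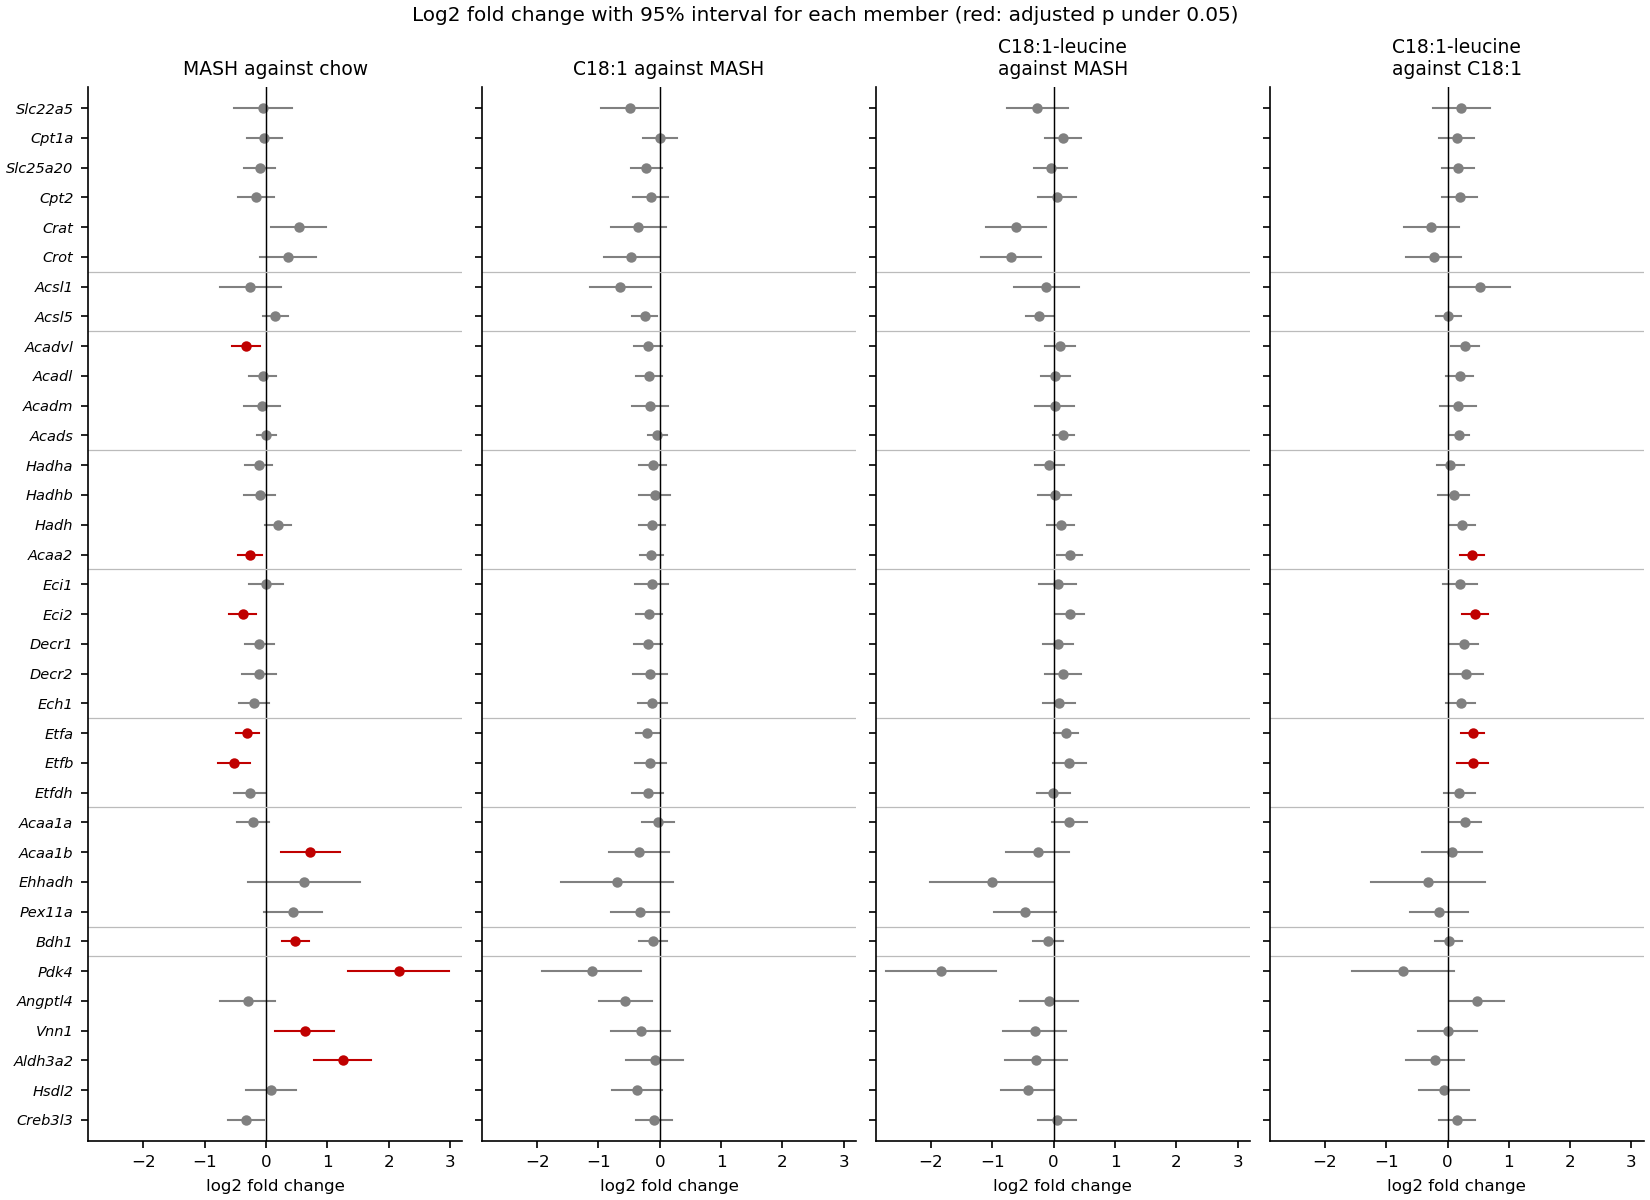
Log2 fold changes (horizontal axes) of the 35 genes in the 4 comparisons, one panel each, with 95% intervals, ordered from the carnitine shuttle at the top to PPARα targets at the bottom; red marks an adjusted p under 0.05. MASH against chow has 10 red points, the C18:1 and C18:1-leucine panels against MASH have 0, and C18:1-leucine against C18:1 has 4, all to the right of 0.

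None of the 6 carnitine shuttle genes and neither acyl-CoA synthetase passed in MASH livers. Cpt1a, which makes acylcarnitines at the outer mitochondrial membrane and is the usual control point of the pathway, averaged 666 ± 94.9 CPM in MASH livers (SD, n = 3) and 677 ± 88.5 CPM in chow livers (SD, n = 4). Its log2 fold change was −0.03, with a 95% interval of −0.31 to 0.26. Crat, which handles short acyl groups, came closest, at 166, 126 and 86.3 CPM in MASH replicates 2, 3 and 4, against 71.6 to 102 CPM in chow livers (0.53 ± 0.21 on the log2 scale, SE; adjusted p = 0.0629). Of Slc22a5, Slc25a20, Cpt2, Crot, Acsl1 and Acsl5, the log2 fold changes lay between −0.25 and 0.36.

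Among the 4 mitochondrial acyl-CoA dehydrogenases, which open each round of the spiral, Acadvl fell and the other 3 did not pass. Acadvl, specific for very long chains, had 629, 590 and 491 CPM in MASH replicates 2, 3 and 4, against 736, 696, 757 and 671 CPM in chow replicates 1 to 4. The groups did not overlap, and the log2 fold change was −0.33 ± 0.11 (SE; adjusted p = 0.0296, edgeR). Leaving out 1 of chow replicates 1 and 3 or of MASH replicates 3 and 4 ended the call of Acadvl, at an adjusted p of up to 0.148. Acadl, Acadm and Acads, for shorter chains, had estimates of −0.05, −0.06 and 0.01.

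Of the later steps, Acaa2, the thiolase that releases acetyl-CoA, was the 1 gene of 4 that fell. It had 898, 852 and 782 CPM in MASH replicates 2, 3 and 4, against 1017, 941, 1049 and 1032 CPM in chow replicates 1 to 4, again without overlap. Its log2 fold change was −0.26 ± 0.09 (SE; adjusted p = 0.0369, edgeR), and the call was lost in 6 of 14 fits with 1 library left out, those without chow replicate 1, 3 or 4, MASH replicate 3 or 4, or C18:1-leucine replicate 2 (adjusted p of up to 0.155). Hadha and Hadhb, the subunits of the trifunctional protein, stood at −0.12 and −0.10, and Hadh at 0.20, none past the threshold. Eci2, an isomerase that moves double bonds of unsaturated acyl-CoA, was the 1 of 5 auxiliary enzymes that fell. It had 286, 261 and 226 CPM in MASH replicates 2, 3 and 4, against 351, 323, 349 and 318 CPM in chow replicates 1 to 4. Every MASH library was below every chow library (log2 fold change −0.38 ± 0.10, SE; adjusted p = 0.0101, edgeR), and without MASH replicate 4 the adjusted p was 0.0579.

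Both subunits of electron transfer flavoprotein, which takes up electrons from the acyl-CoA dehydrogenases, fell in MASH livers. Etfb had 311, 291 and 246 CPM in MASH replicates 2, 3 and 4, against 390, 377, 443 and 410 CPM in chow replicates 1 to 4. Etfa had 365, 320 and 366 CPM in MASH replicates 2, 3 and 4, against 409, 402, 462 and 458 CPM in chow replicates 1 to 4. Neither gene's groups overlapped. The log2 fold change of Etfb was −0.52 ± 0.12 (SE; adjusted p = 0.00475, edgeR), and it passed with any 1 library left out. That of Etfa was −0.30 ± 0.09 (SE; adjusted p = 0.0164, edgeR), and without MASH replicate 3 the adjusted p was 0.0716. Etfdh, the oxidoreductase that passes the electrons on to ubiquinone, was at −0.26 ± 0.12 (SE) and did not pass (adjusted p = 0.0969).

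Promoter windows, from 250 bases before to 50 bases after the annotated start, were at hand for 30 of the 35 genes (33 windows, RefSeq, GRCm38.p6), and were searched on both strands for the direct repeat that PPARα-RXR binds, AGGTCA then AGGTCA again after any 1 base, allowing 2 mismatches. This motif overlaps others made of the same half-site, since many nuclear receptors share it. A match stood in 3 of the 33 windows, and in 3.86% of all 32851 windows. The 3 matches are shown so that their letters can be set against the motif, each as read on its gene's strand, with the match in capitals.
Etfa: TTACCTTTGCCCT
Slc25a20: AGGTGAAAGGTCG
Creb3l3: AGGGGAGAGGTCA
Etfa alone of these 3 passed the test in a comparison of the compounds, and its window is therefore shown whole. It spans chr9:55512194-55512493 on the minus strand, with the match on the opposite strand, 77 to 65 bases before the start.
Etfa promoter: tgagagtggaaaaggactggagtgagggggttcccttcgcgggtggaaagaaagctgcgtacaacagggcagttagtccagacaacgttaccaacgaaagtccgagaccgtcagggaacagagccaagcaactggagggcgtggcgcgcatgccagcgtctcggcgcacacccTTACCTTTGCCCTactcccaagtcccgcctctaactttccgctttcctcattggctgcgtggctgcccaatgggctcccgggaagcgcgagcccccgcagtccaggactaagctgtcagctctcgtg
The windows of Eci2 and Etfb held no match, and Acaa2 had no window. The half-site TCAAGGTCA of the estrogen-related receptors, searched without mismatches, stood in 0 of the 33 windows and in 0.423% of all windows. The site of NRF1, a factor for respiratory genes, searched as GCGCA and GCGC with any 1 base between them and without mismatches, stood in 4 of 33 windows (Etfdh, Hsdl2, Etfb and Slc22a5) and in 4.6% of all. A match is a run of letters only, and binding was not measured.

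Of the peroxisomal genes Acaa1b rose, and 3 of 4 did not pass. Acaa1b had 3588, 2155 and 2374 CPM in MASH replicates 2, 3 and 4, against 1993, 1247, 1875 and 1428 CPM in chow replicates 1 to 4. The groups did not overlap (log2 fold change 0.73 ± 0.22, SE; adjusted p = 0.0226, edgeR), but the call was lost when MASH replicate 2 or either of chow replicates 2 and 4 was left out (adjusted p of up to 0.131). Acaa1a, its near-identical neighbour on chromosome 9, was at −0.21 ± 0.12 (SE; adjusted p = 0.203), and reads shared by the pair may have been divided between them, so both values are uncertain. Ehhadh had 2389, 1036 and 664 CPM in MASH replicates 2, 3 and 4, against 1336, 484, 1072 and 655 CPM in chow replicates 1 to 4, so that the libraries of each group differed several-fold. Pex11a, which promotes peroxisome division, was at 0.44 ± 0.22 (SE; adjusted p = 0.132).

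Bdh1, the mitochondrial enzyme that interconverts acetoacetate and 3-hydroxybutyrate, rose. It had 329, 323 and 341 CPM in MASH replicates 2, 3 and 4, against 254, 206, 255 and 236 CPM in chow replicates 1 to 4. The 3 MASH libraries were close together and all above chow, and the log2 fold change was 0.48 ± 0.10 (SE; adjusted p = 0.00354, edgeR).

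Of the 6 further PPARα targets and regulators, 3 rose and 0 fell. Aldh3a2, a fatty aldehyde dehydrogenase, had 1283, 1111 and 1108 CPM in MASH replicates 2, 3 and 4, against 550, 392, 582 and 439 CPM in chow replicates 1 to 4 (log2 fold change 1.25 ± 0.22, SE; adjusted p = 0.000865, edgeR). Pdk4, a kinase that shuts off pyruvate dehydrogenase and so spares glucose, had 113, 42.0 and 34.9 CPM in MASH replicates 2, 3 and 4, against 16.6, 13.7, 12.6 and 13.6 CPM in chow replicates 1 to 4. Chow livers were uniform, while the MASH libraries spread widely, and the log2 fold change was 2.16 ± 0.38 (SE; adjusted p = 0.00117, edgeR). Without MASH replicate 2, the highest library, it was 1.44, still past the threshold. Vnn1, a pantetheinase, had 202, 166 and 163 CPM in MASH replicates 2, 3 and 4, against 148, 99.2, 125 and 83.2 CPM in chow replicates 1 to 4 (log2 fold change 0.63 ± 0.22, SE; adjusted p = 0.0414, edgeR). Of the 14 fits with 1 library left out, 9 lost this call, those without chow replicate 2, 3 or 4, any MASH library, C18:1 replicate 3 or 4, or C18:1-leucine replicate 2 (adjusted p of up to 0.132). Creb3l3, a liver transcription factor active in fasting, had no overlap between MASH and chow livers but did not pass (−0.32 ± 0.14, SE; adjusted p = 0.0792), and Angptl4, an inhibitor of lipoprotein lipase, was at −0.30.

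**Figure D2:**
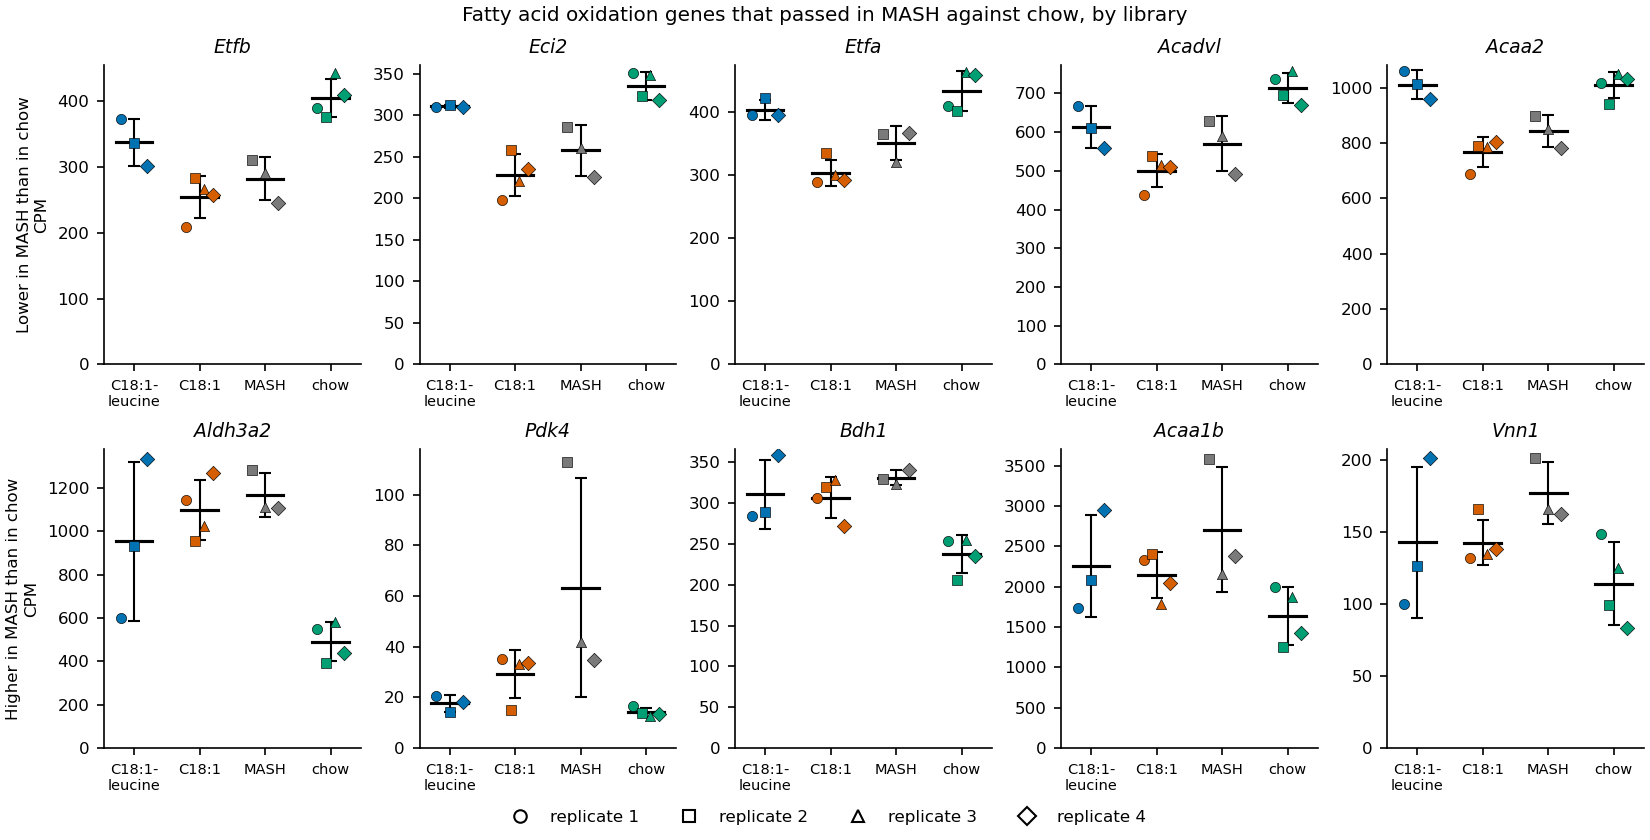
CPM (vertical axes, from 0) of the 10 genes that passed in MASH against chow, with a point per library, its shape giving the replicate number, and the mean and SD of each group; columns are C18:1-leucine, C18:1, MASH and chow. In the upper row all MASH points lie below chow and the C18:1-leucine points lie above the C18:1 points, while in the lower row all MASH points lie above chow and Pdk4 of MASH replicate 2 stands at 113 CPM.

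The counts depended on single libraries. The number of genes that rose was 3 (Bdh1, Pdk4 and Aldh3a2) when MASH replicate 2 or either of chow replicates 2 and 4 was left out. The number that fell was 3 without either of chow replicates 1 and 3, and 2 without either of MASH replicates 3 and 4. All 5 genes that fell changed by less than 1.5-fold.

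Other genes of β-oxidation, on a list of 35 of which 33 were tested, rose in 6 cases and fell in 7 in MASH livers, near the 20.4% and 15.1% of all genes. Acadsb, a dehydrogenase of branched short chains, averaged 106 ± 10.9 CPM in MASH livers and 174 ± 7.48 CPM in chow livers (SD, n = 3 and 4; log2 fold change −0.71, adjusted p = 0.00021, edgeR). Phyh (−0.60), which starts α-oxidation, and Acsm1 (−0.49), a medium-chain acyl-CoA synthetase, also fell. Without MASH replicate 4 the number that rose was 2, beside 2373 of all 15890 genes. The median was −0.13.

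Ketone metabolism beyond Bdh1 was followed in 12 tested genes, of which 4 rose and 1 fell in MASH livers, where all genes gave 20.4% and 15.1%. Oxct1, the enzyme that makes ketone bodies usable as fuel and is characteristically scarce in hepatocytes, averaged 10.9 ± 2.59 CPM in MASH livers and 4.54 ± 0.209 CPM in chow livers (SD, n = 3 and 4; log2 fold change 1.26, adjusted p = 0.000469, edgeR). Hcar2 (2.39), a receptor for 3-hydroxybutyrate found on immune cells and adipocytes, Sirt5 (0.52), a mitochondrial deacylase, and Slc16a6 (1.09), a ketone body exporter, also rose. Hcar2 was near the floor, averaging 1.62 CPM in MASH livers and 0.310 CPM in chow livers. Bdh2, a cytosolic dehydrogenase, fell (−1.25). Summed macrophage genes moved in the same direction, at 377 to 454 CPM in MASH livers and 152 to 256 CPM in chow livers, and their part in these values was not tested. Without chow replicate 1, MASH replicate 2, C18:1 replicate 1, C18:1 replicate 2 or C18:1-leucine replicate 4 the number that fell was 2.

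Of 25 tested PPARα targets outside the 35 genes, 10 rose and 2 fell in MASH livers, where all genes gave 20.4% and 15.1%. The 4 with the smallest p were Cd36 (1.82), a fatty acid transporter, Ucp2 (1.23), a mitochondrial carrier, and the lipid droplet proteins Cidec (4.41) and Plin4 (2.23). Cd36 averaged 280 ± 29.4 CPM in MASH livers and 79.4 ± 13.01 CPM in chow livers (SD, n = 3 and 4; adjusted p = 1.15e-05, edgeR). The median of the list was 0.15. The fatty acid hydroxylases Cyp4a14 (−1.24), Cyp4a10 (−1.18), Cyp4a31 (−0.78) and Cyp4a32 (−0.48) stood below 0 and did not pass. Cyp4a10 averaged 1182 ± 859 CPM in MASH livers and 2672 ± 764 CPM in chow livers (SD; adjusted p = 0.0677, edgeR). Without MASH replicate 2 the number that fell was 7, and without MASH replicate 4 it was 1. Over all genes these fits called 2003 and 1438 lower.

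Within the MASH group the libraries differed in level across most of the genes. MASH replicate 2 was the highest of the 3 in 32 of 35 genes, and MASH replicate 4 was the lowest in 27. Acsl1, the main acyl-CoA synthetase of liver, had 2159, 1121 and 877 CPM in MASH replicates 2, 3 and 4. Bile duct genes summed to 76.0, 92.3 and 368 CPM in the same libraries, and stellate cell genes to 146, 241 and 420 CPM; their part in the spread was not tested. Within the C18:1 group, replicate 1 was the lowest in 24 of 35 genes, and over all 14 libraries it was the lowest in 18. This is the library with the highest bile duct and stellate sums (429 and 630 CPM), and its tag differs from its title. The other groups also had libraries at one end: chow replicate 2 was the lowest of its group in 26 genes and chow replicate 3 the highest in 21. C18:1-leucine replicate 4 was the highest of its group in 24 genes and replicate 1 the lowest in 17.

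**Figure D3:**
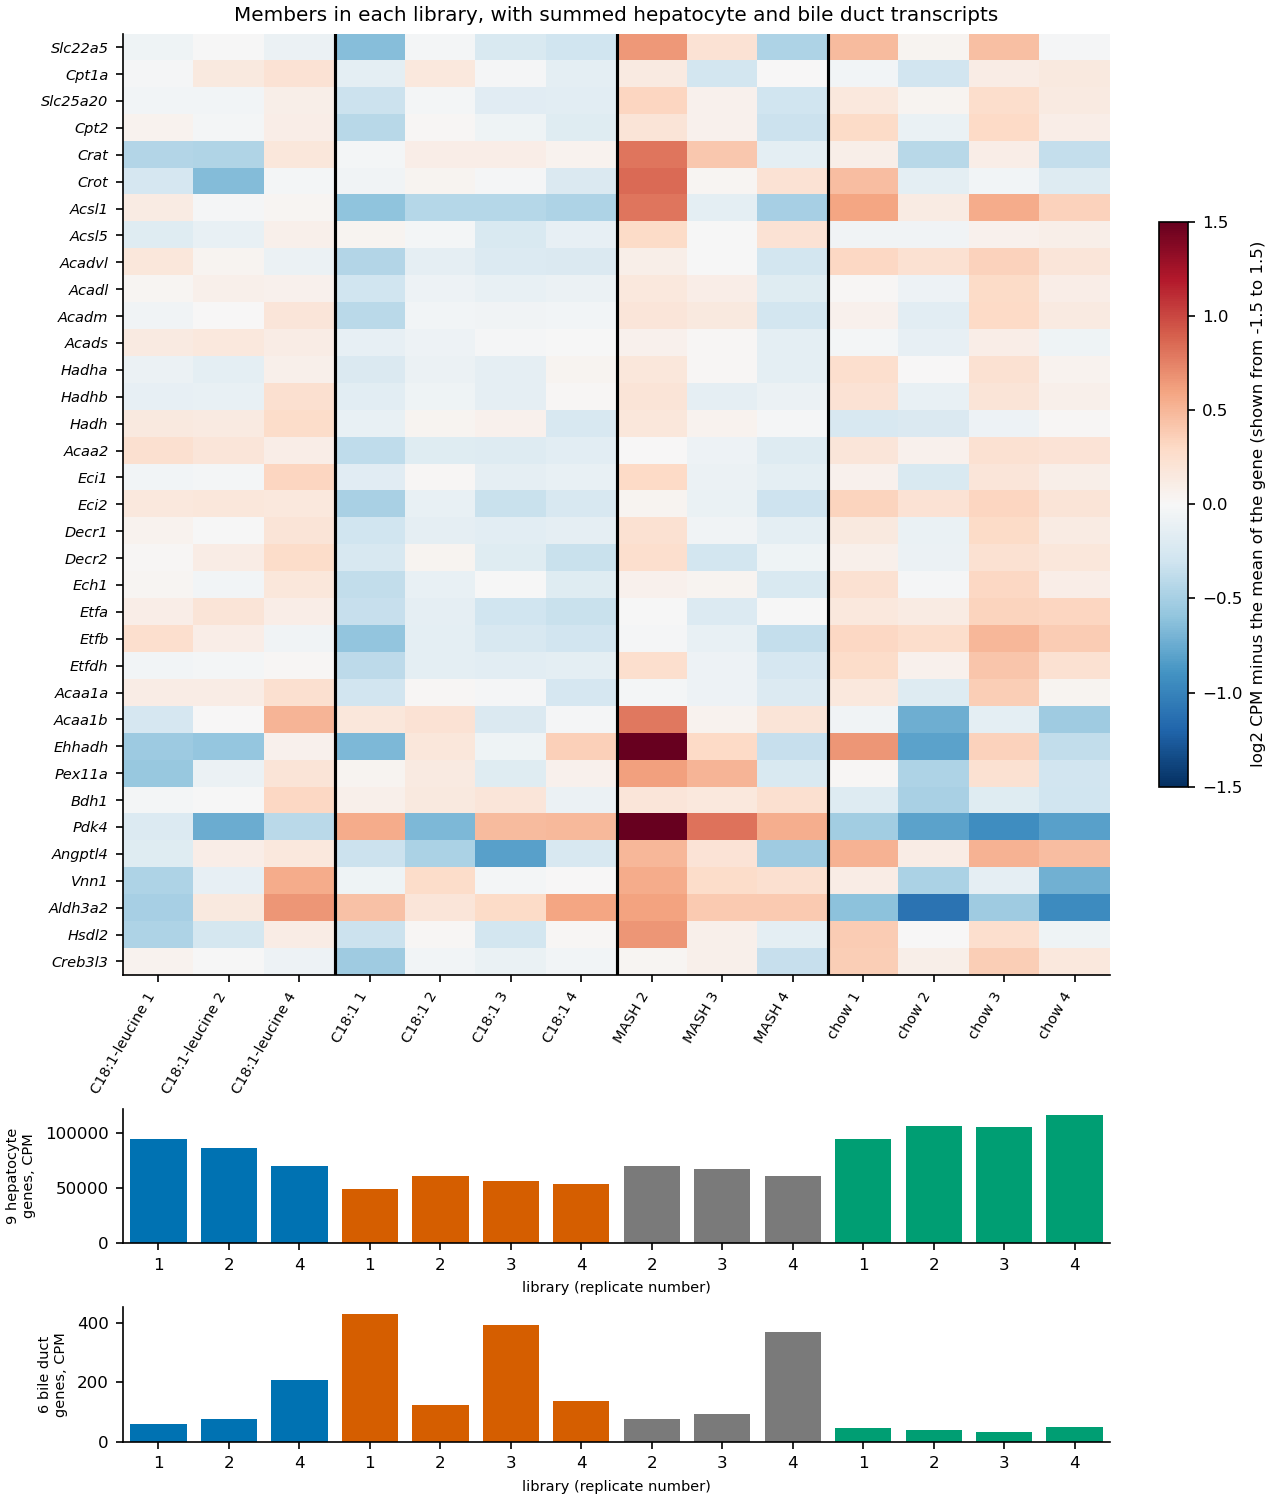
Heat map of the 35 genes (rows) in the 14 libraries (columns: C18:1-leucine, C18:1, MASH, chow), coloured by log2 CPM minus the gene's mean over all libraries, with the summed CPM of 9 hepatocyte and 6 bile duct genes as bars from 0 below. MASH replicate 2 is red in most rows and C18:1 replicate 1 blue in most rows. In C18:1 replicate 1 the bile duct bar is at 429 CPM, of which Spp1 is 392 CPM.

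The comparison of C18:1 with MASH livers asks what the fatty acid alone did on the diet. No gene of the 35 passed (0 higher and 0 lower, edgeR), as was the case for all 15674 genes (0% higher and 0% lower), where the lowest adjusted p was 0.770. DESeq2 and limma voom also called 0 of the 35. At an unadjusted p under 0.05, 7 of the 35 were lower and 0 higher, while over all genes 3.11% were lower and 3.06% higher. The estimates lay below 0 in 34 of 35 genes, Cpt1a being the 1 above 0 at 0.00, and 49.3% of all genes lay below 0 and 50.7% above. The median was −0.18 for the 35 genes and 0.00 for all genes. No gene separated the groups without overlap, and over all genes 2.67% were lower and 2.79% higher in that sense. The 9 hepatocyte genes also all lay below 0, from −0.33 to −0.008, with a median of −0.25. The medians of the other lists were −0.10 for β-oxidation, −0.08 for ketone metabolism and −0.23 for PPARα targets, so a shift below 0 was not particular to the 35 genes.

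The 4 genes with the smallest p each had an adjusted p of 0.77 (edgeR). Pdk4 had 35.3, 14.9, 33.2 and 33.5 CPM in C18:1 replicates 1 to 4, against 113, 42.0 and 34.9 CPM in MASH replicates 2 to 4 (−1.11 ± 0.37 on the log2 scale, SE). Acsl1 had 817, 919, 916 and 896 CPM in C18:1 replicates 1 to 4, a narrow band, against the 877 to 2159 CPM of the MASH libraries (−0.64 ± 0.23, SE). Angptl4 had 159, 144, 114 and 169 CPM in C18:1 replicates 1 to 4, against 281, 229 and 138 CPM in MASH replicates 2 to 4 (−0.56 ± 0.20, SE). Acsl5, an acyl-CoA synthetase shared with intestine, had 271, 259, 225 and 243 CPM in C18:1 replicates 1 to 4, against 321, 262 and 306 CPM in MASH replicates 2 to 4 (−0.25 ± 0.10, SE). In each of the 4 the groups overlapped, and MASH replicate 2 was the highest library of both groups in each. Without it the log2 fold changes were −0.39 for Pdk4, −0.17 for Acsl1, −0.33 for Angptl4 and −0.19 for Acsl5. Then 30 of 35 estimates lay below 0 and the median was −0.08. With groups taken from the treatment tags, 24 lay below 0, beside 50.3% of all genes. With scaling to hepatocyte genes 11 lay below 0, beside 6.65% of all genes. The medians under that scaling were 0.09 for the 35 genes and 0.27 for all genes. None of the 33 other β-oxidation genes, 12 ketone genes and 25 other PPARα targets passed.

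C18:1-leucine was also compared with MASH. No gene of the 35 passed in edgeR (0 higher and 0 lower), where all genes gave 1 higher (0.00638%) and 10 lower (0.0638%). At an unadjusted p under 0.05, 3 were higher (Acaa2, Eci2 and Etfa) and 5 lower (Crat, Crot, Acsl5, Ehhadh and Pdk4), against 8.02% higher and 10.1% lower over all genes. Estimates lay above 0 in 18 genes and below 0 in 17, where all genes gave 47.6% and 52.4%, and the median log2 fold change was 0.01 for the 35 genes and −0.01 for all genes. The split was 24 above and 11 below 0 without MASH replicate 2 (median 0.13), and 11 above and 24 below without MASH replicate 4 (median −0.084), and voom gave 13 above and 22 below (median −0.061). DESeq2 called 1 gene higher (Acaa2, adjusted p = 0.0195) and 2 lower (Pdk4, adjusted p = 0.000437, and Crot, adjusted p = 0.0416), and limma voom called Pdk4 (adjusted p = 0.0244) and Crot (adjusted p = 0.0358) lower. Over all genes DESeq2 called 2.65% higher and 3.38% lower, and voom 1.47% and 2.47%, so 1 or 2 genes of 35 are near those shares.

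Pdk4 had the smallest p, at 20.7, 14.2 and 18.1 CPM in C18:1-leucine replicates 1, 2 and 4, against 113, 42.0 and 34.9 CPM in MASH replicates 2, 3 and 4. All C18:1-leucine libraries were below all MASH libraries, and 2 of the 3 were above the whole chow range of 12.6 to 16.6 CPM. The log2 fold change was −1.84 ± 0.41 (SE; adjusted p = 0.0748, edgeR), and without MASH replicate 2 it was −1.12. Crot, the octanoyltransferase of peroxisomes, had 857, 648 and 1001 CPM in C18:1-leucine replicates 1, 2 and 4, against 1833, 1036 and 1183 CPM in MASH replicates 2, 3 and 4 (−0.69 ± 0.23, SE; adjusted p = 0.142, edgeR). These groups did not overlap either, by a margin of 1001 to 1036 CPM. Crat had 70.3, 69.9 and 107 CPM in C18:1-leucine replicates 1, 2 and 4, against 166, 126 and 86.3 CPM in MASH replicates 2, 3 and 4, with overlap (−0.61 ± 0.23, SE; adjusted p = 0.183, edgeR).

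Acaa2 stood higher, at 1061, 1014 and 959 CPM in C18:1-leucine replicates 1, 2 and 4, against 898, 852 and 782 CPM in MASH replicates 2, 3 and 4. The groups did not overlap, and the log2 fold change was 0.26 ± 0.09 (SE; adjusted p = 0.179, edgeR). Over the 35 genes, 5 were higher without overlap (Acads, Acaa2, Eci2, Etfa and Acaa1a) and 2 lower (Crot and Pdk4), where all genes gave 10.3% and 12%. Of the other lists, none of the 33 β-oxidation genes passed in edgeR, while DESeq2 called 7 of them higher, against its 2.65% of all genes, and limma voom 5, against 1.47%.

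The comparison of the compounds, C18:1-leucine against C18:1, asks whether the leucine conjugate differs from the free fatty acid. It gave 4 genes that rose and 0 that fell (edgeR), and 31 that did not pass. The 4 were Etfa and Etfb, which carry electrons, Acaa2, the last step of the spiral, and Eci2, an auxiliary enzyme. Over all genes 7.34% were higher and 8.89% lower, so that the share of the 35 that rose (11.4%) is near the background. At an unadjusted p under 0.05, 12 were higher and 0 lower, against 15.5% and 16.5% of all genes. Estimates lay above 0 in 28 of 35 genes and below 0 in 7, where all genes gave 48.3% and 51.7%, and the median was 0.19 for the 35 genes and −0.02 for all. In 13 genes every C18:1-leucine library was above every C18:1 library, and 0 were lower in that sense, where all genes gave 13.5% and 14.2%.

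Etfa had 394, 422 and 394 CPM in C18:1-leucine replicates 1, 2 and 4, against 288, 334, 300 and 292 CPM in C18:1 replicates 1 to 4 (log2 fold change 0.41 ± 0.09, SE; adjusted p = 0.00971, edgeR). Etfb had 373, 337 and 302 CPM in C18:1-leucine replicates 1, 2 and 4, against 209, 283, 267 and 258 CPM in C18:1 replicates 1 to 4 (0.41 ± 0.12, SE; adjusted p = 0.0324, edgeR). Both subunits were thus higher by a similar amount, without overlap.

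Eci2 had 310, 313 and 310 CPM in C18:1-leucine replicates 1, 2 and 4, which is almost the same in each, against 198, 258, 220 and 235 CPM in C18:1 replicates 1 to 4 (0.45 ± 0.10, SE; adjusted p = 0.0108, edgeR). Acaa2 had the 959 to 1061 CPM given above in C18:1-leucine livers, against 688, 790, 786 and 805 CPM in C18:1 replicates 1 to 4 (0.40 ± 0.09, SE; adjusted p = 0.0112, edgeR). For Acaa2 the lowest library, C18:1 replicate 1, stood apart from the other 3 of its group. Eci2 has a closely related neighbour among mouse genes, so its reads may in part be shared.

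Other genes differed without passing. Acsl1 averaged 1274 ± 63.2 CPM in C18:1-leucine livers and 887 ± 48.1 CPM in C18:1 livers (SD, n = 3 and 4), with no overlap (0.52 on the log2 scale, 95% interval 0.03 to 1.02; adjusted p = 0.135, edgeR). Acadvl was at 0.29 (interval 0.06 to 0.52; adjusted p = 0.0787) and Angptl4 at 0.48 (interval 0.04 to 0.92; adjusted p = 0.124). For the carnitine shuttle, 0 of 6 genes passed, and Cpt1a was at 0.15 with an interval of −0.13 to 0.43. The peroxisomal genes Acaa1b (0.08, interval −0.41 to 0.56) and Ehhadh (−0.32, interval −1.25 to 0.61) and the targets Pdk4 (−0.73, interval −1.56 to 0.10), Vnn1 (0.00, interval −0.48 to 0.49) and Aldh3a2 (−0.21, interval −0.68 to 0.27) did not pass, and these wide intervals do not show that the compounds act alike on them.

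Without either 1 of the 2 libraries whose tags differ from their titles, Etfa, Eci2 and Acaa2 still passed. With both left out, 0 of 35 genes passed and calls over all genes numbered 487, against 2544 with them, with log2 fold changes of 0.40 for Etfa, 0.39 for Eci2, 0.31 for Acaa2 and 0.25 for Etfb. With groups taken from the tags 0 passed as well, in a fit that called 0 genes of 16000. Without C18:1-leucine replicate 2, which carried pancreatic transcripts, Eci2 alone passed. That fit called 282 of 15980 genes higher, against 1151 of 15674 with the library, so calls were lost over all genes. Etfb lost its call without C18:1 replicate 1, C18:1 replicate 4 or C18:1-leucine replicate 1 (adjusted p of up to 0.13). Hepatocyte genes moved alongside, with 5 of 9 higher in C18:1-leucine livers. That number was 2 without C18:1-leucine replicate 2, and 3 without C18:1-leucine replicate 1 or C18:1 replicate 1 or 4. With libraries scaled to the hepatocyte genes the median of all genes moved to −0.61. Of the 35, 0 were then called higher and 21 lower, beside 59 higher and 10627 lower of all 15674 genes. Etfa, Etfb, Eci2 and Acaa2 turned to between −0.20 and −0.14. Summed macrophage genes ran from 171 to 303 CPM in C18:1-leucine livers and from 353 to 590 CPM in C18:1 livers, with 4 of 6 called lower. All 4 erythroid genes were called higher, and summed to 355 to 673 CPM in C18:1-leucine livers and 159 to 411 CPM in C18:1 livers. Of 5 stellate genes Col3a1 was called lower, with sums of 136 to 210 CPM in C18:1-leucine livers and 201 to 630 CPM in C18:1 livers. Of 6 bile duct genes Sox9 was called lower, with sums of 58.7 to 208 CPM in C18:1-leucine livers and 122 to 429 CPM in C18:1 livers. Neutrophil genes summed to 52.1 CPM in C18:1-leucine replicate 1 and to at most 13.2 CPM in any other library. The part of cell composition in these values was not tested.

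Among the other β-oxidation genes, 12 of 33 were higher in C18:1-leucine livers and 0 lower, where all genes gave 7.34% and 8.89%. Acadsb averaged 138 ± 14.4 CPM in C18:1-leucine livers and 86.6 ± 9.38 CPM in C18:1 livers (SD, n = 3 and 4; log2 fold change 0.68, adjusted p = 0.00329, edgeR). Acsm1 (0.55), Phyh (0.64) and Echs1 (0.41), the enoyl-CoA hydratase of the spiral, also rose. The count was 6 without C18:1 replicate 1, 3 or 4 or C18:1-leucine replicate 1, and 4 without C18:1-leucine replicate 2. Over all genes these fits called 465, 816, 470, 447 and 282 higher, in the same order, against 1151 with all libraries. The count of the list was 2 with both differently tagged libraries left out (106 of all genes). It was 0 with groups from the tags (0 of all genes), and 0 higher and 16 lower with hepatocyte scaling. Over all 15674 genes that scaling called 59 higher and 10627 lower. Without C18:1-leucine replicate 4, 2 were lower. Of the ketone genes Sirt3 (0.38), a mitochondrial deacetylase, rose, and Oxct1 (−0.74), Hcar2 (−1.36) and Slc16a6 (−0.95) fell. Hcar2 was low here too, at 0.804 to 1.10 CPM in C18:1-leucine livers and 1.96 to 3.37 CPM in C18:1 livers. Of the 3 ketone genes that fell, 0 were called without C18:1 replicate 1, C18:1 replicate 4, C18:1-leucine replicate 1 or C18:1-leucine replicate 2, and 1 was called without MASH replicate 2 or C18:1-leucine replicate 4. The rise of Sirt3 was likewise not called in 4 of these fits. Over all genes, leaving out C18:1 replicate 1 or 4 or C18:1-leucine replicate 1 or 2 gave 474 to 813 lower, against 1393 with all libraries.

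Of the 25 other PPARα targets, 3 rose and 2 fell. The 3 were the acyl-CoA thioesterases Acot3 (2.80), Acot4 (1.09) and Acot12 (0.36), of which Acot3 and Acot4 belong to a cluster of near-identical genes and are uncertain. Acot3 had 33.5, 14.9 and 10.4 CPM in C18:1-leucine replicates 1, 2 and 4, against 2.25, 1.96, 4.85 and 2.07 CPM in C18:1 replicates 1 to 4. Ucp2 (−0.97) and Plin2 (−0.79), which coats lipid droplets, fell. Without C18:1 replicate 1, C18:1 replicate 4 or C18:1-leucine replicate 1, 0 of the list rose, and without C18:1-leucine replicate 2, 1 rose. Over all genes these fits called 282 to 470 higher, against 1151 with all libraries. The number of the list that fell was 5 without C18:1-leucine replicate 4, and 1 when C18:1-leucine replicate 1 or 2, any C18:1 library, MASH replicate 3 or 4, or chow replicate 3 was left out.

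The comparisons of MASH with chow and of C18:1-leucine with C18:1 have no library in common. The 4 genes that rose in the second were 4 of the 5 that fell in the first (80% of the fallen, 100% of the risen). Over all genes, 857 were lower in MASH and higher with C18:1-leucine, which is 36.3% of the 2363 lower and 74.5% of the 1151 higher genes. Across the 35 genes, which are not independent of one another and were estimated in one fit, the Pearson correlation of the log2 fold changes was −0.87, and across all 15674 genes it was −0.71. The signs were opposite in 28 of 35 genes (80%) and in 79.3% of all genes, so the pattern of opposite directions is that of the whole transcriptome.

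**Figure D4:**
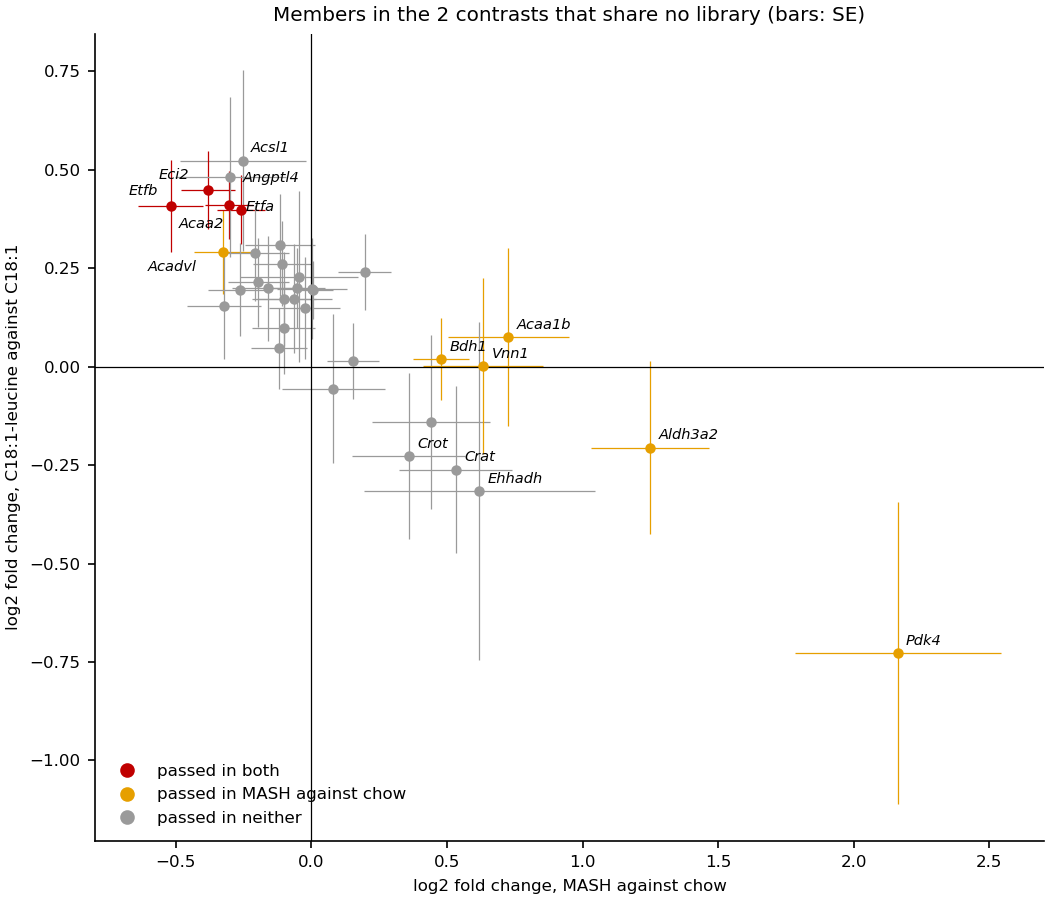
Log2 fold change of each of the 35 genes in C18:1-leucine against C18:1 (vertical) and in MASH against chow (horizontal), with bars of 1 SE. Etfb, Eci2, Etfa and Acaa2 passed in both and lie together at the upper left, and Pdk4 lies at the lower right, at 2.16 and −0.73.

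Set against the chow range as a description with no test, the C18:1 libraries were all below all chow libraries in 13 genes and all above in 2 (Bdh1 and Aldh3a2), where all genes gave 22% and 24.6%. The C18:1-leucine libraries were all below in 6 genes (Acsl1, Acadvl, Eci2, Etfb, Etfdh and Creb3l3) and all above in 4 (Acads, Hadh, Bdh1 and Aldh3a2), where all genes gave 12.4% and 16.8%. Acaa2 and Etfa in C18:1-leucine livers overlapped with chow. Aldh3a2 ran from 599 to 1332 CPM in the C18:1-leucine libraries and from 957 to 1271 CPM in the C18:1 libraries, against at most 582 CPM in chow.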

How the data were processed

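Liver RNA was measured by sequencing, as 14 libraries. The authors deposited expected counts for each Ensembl gene. Between 5.09% and 5.76% of a library's values were fractional, and all were rounded to whole counts. The submitters' processing notes list the build GRCm38 and the tools HTSeq and DESeq2 1.42.1 without their roles. Library preparation used NEBNext Ultra II per the labels' protocols. The 6 deposited comparison tables carry letters without a key and were not used.

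Titles gave the groups. A gene was kept with a minimum count of 10 in 3 libraries and a total of 15. All 14 libraries entered 1 model without covariates in edgeR 4.0.16 under R 4.3.3, with TMM factors and two-sided robust quasi-likelihood F tests. Benjamini-Hochberg adjustment ran over all 15674 genes, with a threshold of 0.05. CPM was computed with the TMM-scaled library size, and intervals are 95% intervals of the same model. Positions and exon lengths came from GENCODE M21 (GRCm38), where 45143 of 45706 identifiers were found, including those of all 35 genes. The models were tested on simulated counts.

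The 35 genes and the other lists were chosen with earlier results of these data known. Values per library are given for each gene that passed, or for the 4 of smallest p if fewer passed. Up to 4 genes of smallest p are named per other list. Slc16a6, Plin2, Ppara and the Cyp4a genes were added after their values were seen. An item withheld for evaluation is not reported here. Any 2 libraries of a group differed beyond sampling noise (chi-square 27.6 to 175.2 per gene).

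Alternatives were relative log expression factors, scaling to 9 hepatocyte genes, keeping low counts, DESeq2 1.42.0, voom of limma 3.58.1 with sample weights, fitting the compared groups alone, a replicate block, groups from the tags, leaving out both differently tagged libraries, a minimum of 1.5-fold, and leaving out each library.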

Additional observations from a re-analysis of the deposited data

Results flagged for a closer look

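Dixon's ratio sets the gap of 1 library from the other 3 against the whole range. It flagged 8 of 70 sets of 4 libraries (35 genes in the chow and C18:1 groups, 11.4%). Chance flags about 1 in 20 of independent sets. The sets here share libraries and are not independent, and the share over all genes was not computed. The 11.4% is therefore not read as an excess. Of the 8 flags, 6 were low values of C18:1 replicate 1, whose tag differs from its title. The ratio was 0.960 for Acadm, the medium-chain dehydrogenase, at 410 CPM in this library and 521 to 526 CPM in the other 3. It was 0.940 for Etfdh, at 326 CPM and 383 to 387 CPM in the others, and 0.879 for Creb3l3, at 253 CPM and 343 to 358 CPM in the others. It was 0.874 for Acadl, at 195 CPM and 223 to 227 CPM in the others, and 0.872 for Decr1, a reductase for unsaturated chains, at 216 CPM and 239 to 243 CPM in the others. It was 0.847 for Acaa2, at 688 CPM and 786 to 805 CPM in the others. Summed bile duct genes were 429 CPM in this library and 122 to 391 CPM in the other 3, and summed hepatocyte genes were 48963 CPM and 53475 to 61585 CPM. Their part in these values was not tested.

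Pdk4 was low in C18:1 replicate 2 (ratio 0.929), at 14.9 CPM against 33.2 to 35.3 CPM in the other C18:1 libraries. Angptl4 was low in chow replicate 2 (ratio 0.845), at 216 CPM against 274 to 287 CPM in the other chow libraries.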

How the results depend on the processing

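Counts of the 35 genes in MASH against chow were 5 higher and 5 lower. Scaling to hepatocyte genes gave 32 higher and 0 lower, beside 11837 higher and 167 lower of all 15674 genes. No filter on low counts gave 3 lower, and a minimum of 1.5-fold gave 0 lower. With 1 library left out they were 3 to 6 higher and 2 to 7 lower, beside 2373 to 3222 and 1438 to 2616 of all genes. For C18:1-leucine against C18:1 (4 higher, 0 lower), limma voom gave 7 higher, beside 2051 of all 15674 genes. The number was 0 with groups from the tags, with both differently tagged libraries left out, with a minimum of 1.5-fold and with hepatocyte scaling. That scaling gave 21 lower, beside 10627 of all genes. With 1 library left out 1 to 5 were higher, beside 282 to 1434 of all genes. For C18:1-leucine against MASH (0 and 0), DESeq2 gave 1 higher and 2 lower, and voom and hepatocyte scaling gave 2 lower each. Over all genes DESeq2 called 415 higher and 530 lower, voom 387 lower and hepatocyte scaling 1129 lower. For C18:1 against MASH, 0 passed in every alternative run. Hepatocyte scaling reversed the sign of 11 values of named genes. Most of the sum used for it was Alb, at a mean of 37667 CPM in MASH livers and 62531 CPM in chow livers (log2 fold change −0.73). The 9 hepatocyte genes ranged from −1.19 to −0.21 in MASH against chow. In MASH against chow it gave Etfb 0.15, Eci2 0.28, Etfa 0.38, Acadvl 0.34 and Acaa2 0.41. In C18:1 against MASH it gave Acsl5 0.028, and in C18:1-leucine against MASH Acaa2 −0.066. In C18:1-leucine against C18:1 it gave Etfa −0.18, Eci2 −0.14, Acaa2 −0.20 and Etfb −0.19. The scaling applies to every gene of a library, so the sign changes are not particular to the named genes. It moved the median of all genes from 0.01 to 0.68 in MASH against chow. In C18:1-leucine against C18:1 that median moved from −0.02 to −0.61. Why the hepatocyte genes differed between groups was not tested. Of the values of single genes under all alternatives, 441 kept direction and side of the threshold, 47 lost it, 7 gained it and 11 reversed.

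With the replicate block 3 genes were higher in MASH (Acaa1b and Vnn1 lost) and Acaa2 was no longer called lower. Same-numbered libraries of different groups correlated between −0.24 and 0.42, over 0.1 in 6 of 18 pairs, and 3 of 14 libraries correlated best with their own number. Such correlations cannot show whether same-numbered libraries were handled together. The block changed no other call of a named gene.

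The −1.11 of Pdk4 in C18:1 against MASH, with 4 and 3 libraries, did not pass after adjustment. The groups overlapped, and without MASH replicate 2, at 113 CPM, the estimate was −0.39. What kept Pdk4 from passing was not tested.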

Other observations

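Regulators of the pathway were followed in 16 genes, of which 3 rose and 7 fell in MASH against chow (edgeR), where all genes gave 20.4% and 15.1%. Sirt1, a deacetylase, averaged 12.8 ± 0.596 CPM in MASH livers and 17.7 ± 0.802 CPM in chow livers (SD, n = 3 and 4; log2 fold change −0.47, adjusted p = 0.00151, edgeR). Lpin1 (−2.51), a phosphatidate phosphatase and coactivator of PPARα, and Ppargc1b (−1.02), a coactivator of mitochondrial genes, also fell, while Pparg (1.20), the adipogenic relative of PPARα, rose. Leaving out 1 library left 1 riser when it was MASH replicate 2 or one of chow replicates 1 and 3. Fallers then numbered 4 (chow replicate 1 out), 3 (chow replicate 3 or MASH replicate 2 out) or 1 (MASH replicate 4 out). Over all genes those fits called 1438 to 2253 lower, against 2363 with all libraries. Scaling to hepatocyte genes gave 11 higher and 1 lower, beside 11837 higher and 167 lower of all 15674 genes. In the other 3 comparisons 0 of the 16 passed in edgeR. For C18:1-leucine against C18:1, limma voom called 1 higher and 2 lower and DESeq2 called 1 lower. Ppara itself, given because the title of the series names it, did not pass in any comparison. It averaged 152 ± 21.1 CPM in C18:1-leucine livers, 121 ± 20.2 CPM in C18:1 livers, 133 ± 18.6 CPM in MASH livers and 142 ± 13.4 CPM in chow livers (SD, n = 3, 4, 3 and 4).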
